A study of Homo sapiens with 4 samples.

Results

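Leukocyte surface antigens and immune receptors were measured in HAP1 cells with and without the MATR3 gene. HAP1 is an established human line with a nearly haploid genome, which makes knockouts simple to obtain. The group held 53 of the 785 gene probes of a NanoString panel, an assay that counts barcoded probes on RNA molecules directly, with no amplification step. Its members were all probes whose symbol begins with CD and a digit or with FCGR, FCER, KLR, KIR, LILR, CLEC or SIGLEC, apart from CD44 and CD74. The samples were total RNA of 2 wild-type lines, numbered 1 and 7, and of 2 MATR3 knockout lines, numbered 1 and 5, bought from a supplier, with no treatment named in the labels. Per the labels' protocols each knockout line is 1 clone and each wild-type line carries both a batch number and a clone number, so that p-values measure only the spread between these lines. MATR3 codes for a nucleic acid binding protein of the nuclear matrix. The MATR3 transcript itself was not analysed here, so that the values do not check the genotype labels.

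CD numbers name molecules on the surface of blood cells that antibodies were first grouped by, and many of them define a lineage, such as CD3 on T cells, CD79 on B cells or CD14 on monocytes. KIR and KLR proteins are receptors of natural killer cells, which read MHC class I and related ligands on the cells they meet. FCGR proteins bind the constant part of IgG, LILR proteins are MHC and other ligand receptors of myeloid cells, and SIGLEC proteins bind sialic acid. A smaller number of CD molecules are found on most cell types, among them the complement inhibitor CD59 and the tetraspanin CD81. HAP1 was derived from a chronic myeloid leukaemia but grows attached and has lost most features of blood cells.

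Of the 53 symbols, 47 matched a RefSeq gene; the others are 3 CD45 isoform probes and 3 probes named for a pair of near-identical genes. A promoter sequence of RefSeq (GRCh38.p14) was matched for 30 members. In the 250 bases before the start site, the count of CG dinucleotides had a median of 5 in the 7 matched members above background in all 4 samples, of 5.5 in the 10 above it in some and of 3 in the 13 above it in none. Over all 27305 promoters the median was 11. Promoters of 2 members that were high in every line, CD276 and CD59, are shown first, with each CG in capitals, 29 in CD276 and 12 in CD59. These 2 held the most CG of the 7, and CD36, also clear of background in every line, held 2. Of all promoters, 13.8% held at least as many as CD276 and 48.3% at least as many as CD59. The KIR2DL1 and KIR2DL3 promoters follow because these genes are closely related. Of the pair, the KIR2DL1 probe was above background in all 4 samples and the KIR2DL3 probe in none. Their capitals mark the longest run shared within the 250 bases of each, which is 117 bases long. That run reaches the last base shown for KIR2DL1, so the full shared run may be longer.
CD276, chr15:73684133-73684382, plus strand: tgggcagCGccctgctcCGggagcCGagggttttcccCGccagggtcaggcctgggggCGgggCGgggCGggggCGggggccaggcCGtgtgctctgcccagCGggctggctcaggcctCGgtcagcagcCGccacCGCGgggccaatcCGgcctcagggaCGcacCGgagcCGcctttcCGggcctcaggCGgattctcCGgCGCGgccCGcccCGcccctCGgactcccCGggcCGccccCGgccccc
CD59, chr11:33736480-33736729, minus strand: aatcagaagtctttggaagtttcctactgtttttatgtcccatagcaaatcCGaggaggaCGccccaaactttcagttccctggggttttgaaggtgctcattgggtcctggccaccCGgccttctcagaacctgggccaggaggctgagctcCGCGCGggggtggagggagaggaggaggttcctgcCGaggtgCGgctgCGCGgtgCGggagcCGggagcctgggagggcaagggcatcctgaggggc
KIR2DL1, chr19:54769543-54769792, plus strand: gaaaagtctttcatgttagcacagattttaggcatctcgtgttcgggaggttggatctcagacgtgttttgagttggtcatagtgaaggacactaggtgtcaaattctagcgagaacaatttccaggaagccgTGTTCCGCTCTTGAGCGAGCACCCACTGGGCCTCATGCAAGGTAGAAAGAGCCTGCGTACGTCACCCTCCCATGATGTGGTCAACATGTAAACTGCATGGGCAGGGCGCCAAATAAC
KIR2DL3, chr19:54738263-54738512, plus strand: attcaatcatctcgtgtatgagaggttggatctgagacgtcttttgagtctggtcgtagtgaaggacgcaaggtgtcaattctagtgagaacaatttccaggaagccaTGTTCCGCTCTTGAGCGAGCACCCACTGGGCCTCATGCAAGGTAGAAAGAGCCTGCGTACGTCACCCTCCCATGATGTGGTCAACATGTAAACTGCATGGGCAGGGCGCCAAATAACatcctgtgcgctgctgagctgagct

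Most members were at or near background. For each sample a limit was set 2 SD above the mean of its 8 negative control probes, which have no target, on the scale of the gene values. Wild-type lines 1 and 7 had limits of 25.7 and 21.1 normalised counts, and knockout lines 1 and 5 had limits of 19.5 and 21.7. In all 4 samples 11 of the 53 members (20.8%) lay above it, where 49.6% of all gene probes did. In no sample did 24 members (45.3%), against 25.4% of all gene probes. The other 18 members were above it in 1 to 3 samples. Wild-type lines 1 and 7 had 17 and 29 members above the limit, and knockout lines 1 and 5 had 23 and 12. The panel as a whole ranked the lines alike. Of all gene probes, wild-type line 7 had 71.1% above its limit and knockout line 1 had 65.6%. Wild-type line 1 followed with 57.1%, and knockout line 5 was last with 52.1%. All 18 partly detected members were above the limit in wild-type line 7, and 1 of them, LILRB2, in knockout line 5. No member was above the limit in both lines of 1 genotype and in neither line of the other, where 6 of all gene probes were found so for the wild type and 2 for the knockout. Without knockout line 5, 17 members would count as above the limit in all remaining samples. The control probe NEG_A was the highest negative control in every sample, at 26 and 25 counts in wild-type lines 1 and 7 and at 17 and 22 in knockout lines 1 and 5, so that a low count repeated in all lines was also seen in a probe with no target. With the limit set without NEG_A, 17 members were above it in all 4 samples.

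**Figure D1:**
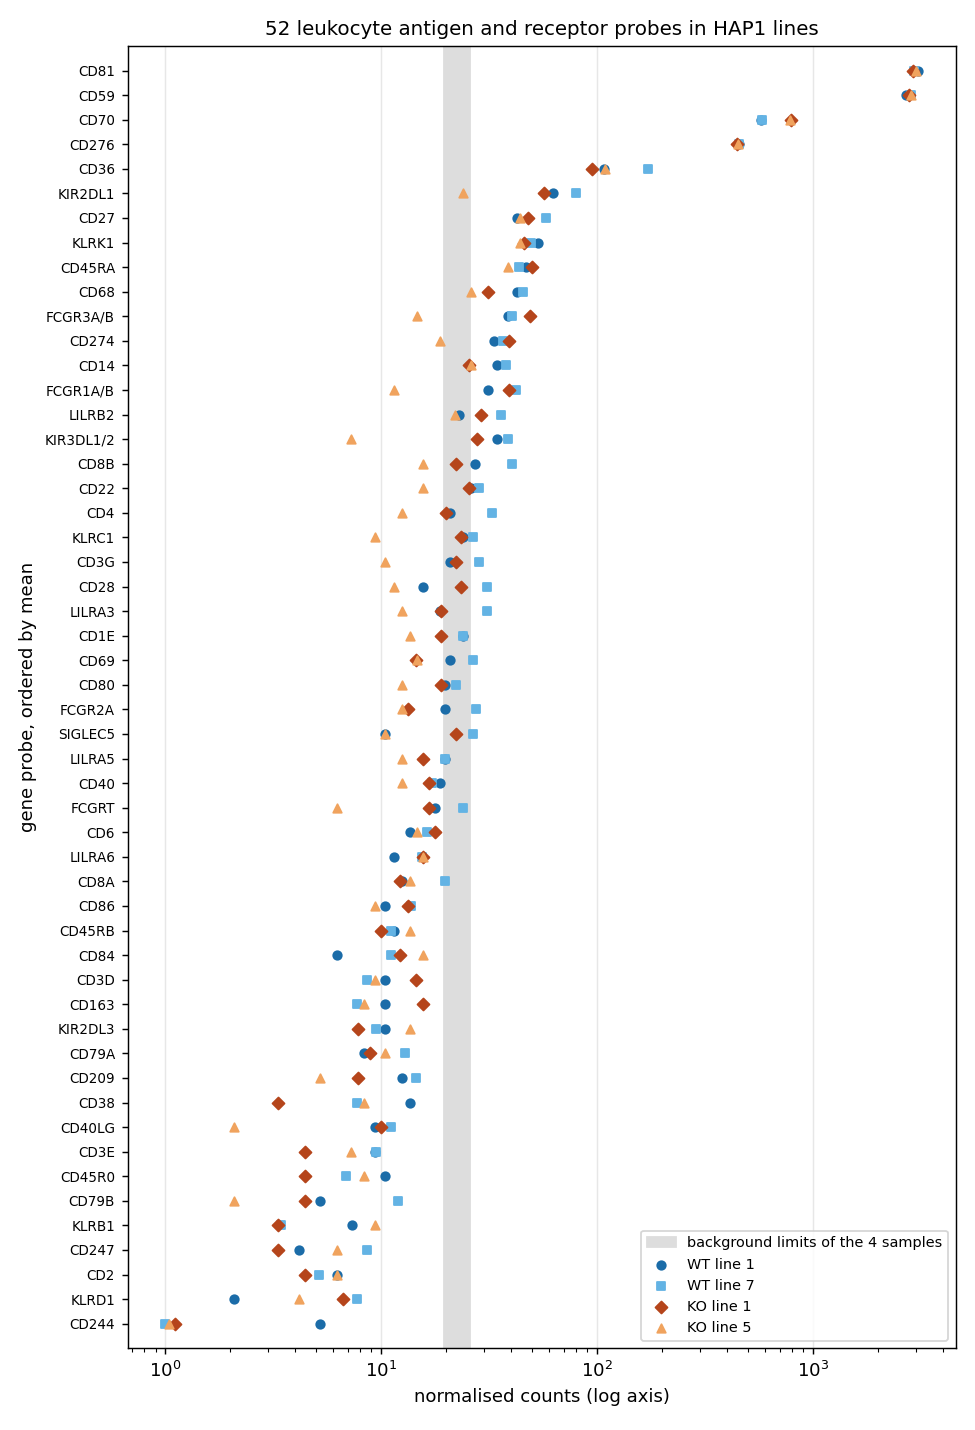
Normalised counts (log axis) of 52 of the 53 members, 1 row each, in the 4 HAP1 lines; the grey band spans the background limits of the samples, from 19.5 to 25.7. CD81, CD59, CD70, CD276 and CD36 stand clear of the band in every line. Most low members with a mean of 20 or more have their lowest point in knockout line 5.

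The line was checked against leukocyte markers outside the group. Of 13 such markers on the panel, 11 were above the limit in no sample, among them PTPRC (the pan-leukocyte antigen CD45) at 6.68 to 9.39 normalised counts, ITGAM (CD11b) at 2.08 to 5.13 and MS4A1 (CD20) at 10.0 to 19.7. GNLY, a granule protein of killer cells, reached 26.7 in knockout line 1 and 24.8 in wild-type line 7, and NKG7 reached 26.7 in knockout line 1. The summed level of the 13 markers was 162 and 165 in wild-type lines 1 and 7, 161 in knockout line 1 and 113 in knockout line 5. Total gene counts ran from 448610 to 571767 per sample. The 53 members took 1.51% to 1.66% of the normalised signal of a sample, and CD59 and CD81 together made up 71.0% to 74.5% of that.

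CD70 was the member that changed with the knockout. It encodes the TNF family ligand of CD27, which is found on activated lymphocytes and on many tumour cells. Wild-type lines 1 and 7 held 574 and 580.1 normalised counts of CD70, and knockout lines 1 and 5 held 791 and 782. Both knockout lines lay above both wild-type lines, and lines of the same genotype differed little, with 577 ± 4.45 for the wild type and 786 ± 6.83 for the knockout (SD, n = 2). The fold change was 1.36, with a 95% interval of 1.19 to 1.56, or 0.45 ± 0.09 on the log2 scale (SE; limma adjusted p = 0.00913). The values rest on 550 and 678 probe counts in the wild type, and 711 and 751 in the knockout. Their 95% Poisson intervals were 527 to 624 and 537 to 625 normalised counts in wild-type lines 1 and 7. In knockout lines 1 and 5 they were 734 to 852 and 727 to 839. The SDs between lines were thus smaller than counting error. CD70 kept its call without each single line and with edgeR on the recovered counts (adjusted p = 0.00942), which called 7.98% of tested genes. It lost its call under limma without the variance trend (adjusted p = 0.175), which called 0.778%.

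Its receptor CD27, a co-stimulator of T and B cells, was at 42.8 and 58.2 in wild-type lines 1 and 7, and at 47.9 and 43.7 in knockout lines 1 and 5. The groups overlapped, and the log2 fold change of -0.12 had an interval of -0.73 to 0.49 (limma adjusted p = 0.831). CD40 and its ligand CD40LG, another TNF receptor family pair of B cells and T cells, were above the limit in no sample, at 12.5 to 18.8 for CD40 and 2.08 to 11.1 for CD40LG.

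CD70 was 1 call among the 24 members tested, or 4.17%, where limma called 8.17% of the 514 tested genes, 6.23% higher and 1.95% lower. Genes were tested where their mean over the samples reached 20, and 29 members fell short of it. By unadjusted p, 3 of the 24 members were under 0.05, against 19.8% of all tested genes; the others were KIR2DL1 and KIR3DL1/2. Knockout and wild-type values did not overlap in 12 of the 24 members, 1 of them with the knockout higher and 11 with it lower. Over all tested genes 53.1% did not overlap, 22.4% with the knockout higher and 30.7% with it lower. With 2 samples against 2, an exact permutation test of a single member cannot go below a two-sided p of 0.333.

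**Figure D2:**
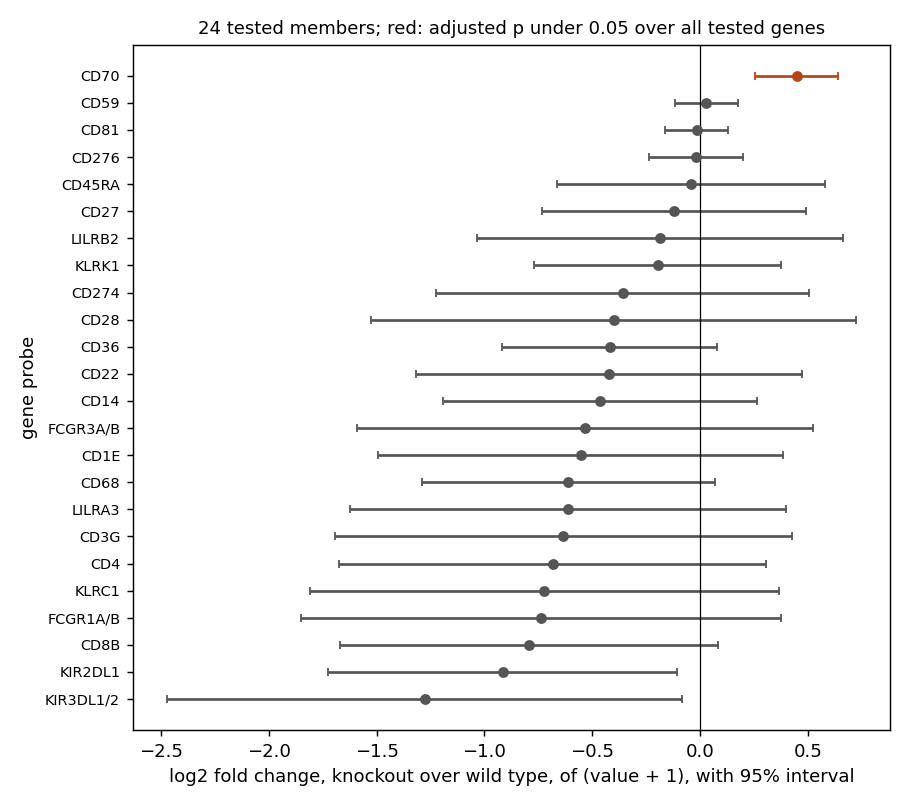
Log2 fold change of (value + 1), knockout over wild type, of the 24 tested members with its 95% interval from limma. CD70, in red at 0.45, is the member past the threshold; the narrow intervals of CD81, CD59 and CD276 span 0, and that of KIR3DL1/2 spans more than 2 log2 units.

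The remaining abundant members stayed close to their wild-type level. CD81, a tetraspanin that organises receptors in the membrane, was at 3062 and 2928 in wild-type lines 1 and 7, and at 2922 and 2993 in knockout lines 1 and 5. CD59, an anchored inhibitor of the complement pore, was at 2687 and 2830.4 in the wild type, and at 2794 and 2832 in the knockout. CD276, the immune checkpoint molecule B7-H3, was at 456 and 453 in the wild type, and at 446 and 449 in the knockout. The groups overlapped for CD81 and CD59; for CD276 the knockout values lay below the wild-type ones by less than the width of their counting intervals. The fold change was 0.988 for CD81 (95% interval 0.894 to 1.09), 1.02 for CD59 (0.922 to 1.13) and 0.985 for CD276 (0.847 to 1.15). None of the 3 passed, with limma adjusted p of 0.898, 0.834 and 0.927, and the sign for CD81 and CD276 changed with the scaling of the samples.

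CD36, a scavenger receptor for fatty acids and lipoproteins, varied between the wild-type lines. It was at 107 in wild-type line 1 and 173 in wild-type line 7, and at 94.6 and 109 in knockout lines 1 and 5. Knockout line 5 lay above wild-type line 1, so that the groups overlapped, and wild-type line 7 alone was high. On the log2 scale the fold change of -0.42 ± 0.23 (SE) did not pass (limma adjusted p = 0.325). Without wild-type line 1 it was -0.76 and was called (limma adjusted p = 0.0164), in a fit that called 10.3% of tested genes, and without wild-type line 7 it was -0.08 (limma adjusted p = 0.896). CD274, the checkpoint ligand PD-L1, was at 33.4 and 36.8 in wild-type lines 1 and 7, at 39.0 in knockout line 1 and below the limit, at 18.7, in knockout line 5. Its log2 fold change of -0.36 (limma adjusted p = 0.596) was 0.15 without knockout line 5.

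**Figure D3:**
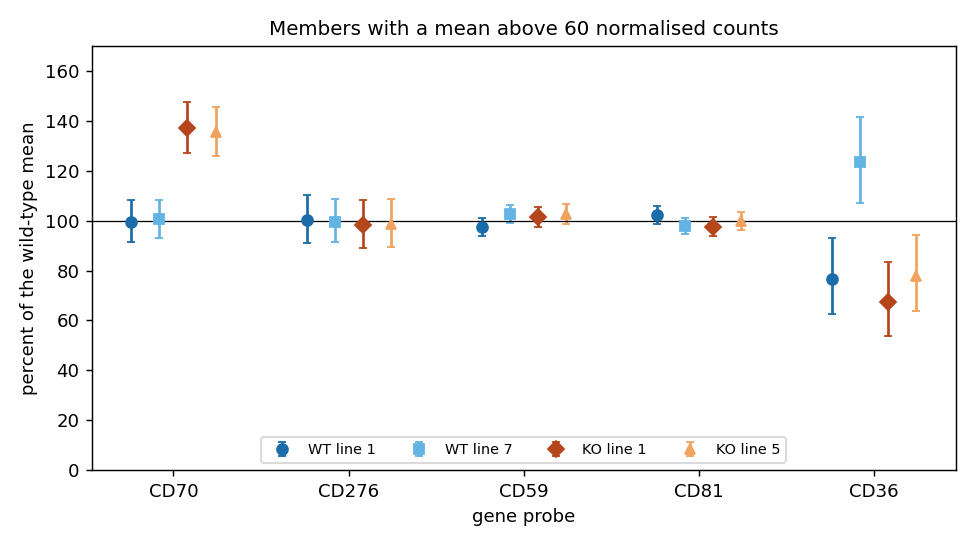
Level of the 5 members with a mean above 60 normalised counts, in percent of the wild-type mean of each, by line; bars are exact 95% Poisson intervals of the probe counts and cover counting error only. Both knockout lines lie above both wild-type lines for CD70, all lines lie close to 100 for CD276, CD59 and CD81, and wild-type line 7 stands apart for CD36.

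Killer cell receptors gave the largest differences among the tested members, and these rested on knockout line 5. KIR2DL1, an inhibitory receptor for HLA-C, was at 62.6 and 79.6 in wild-type lines 1 and 7, at 56.8 in knockout line 1 and at 23.9 in knockout line 5. The KIR3DL1/2 probe, named for a pair of near-identical receptor genes, was at 34.4 and 38.5 in the wild type, at 27.8 in knockout line 1 and at 7.28 in knockout line 5. In both, knockout line 1 lay just under the wild-type lines and knockout line 5 far below all others. The log2 fold change was -0.92 ± 0.37 for KIR2DL1 and -1.28 ± 0.54 for KIR3DL1/2 (SE), and neither passed (limma adjusted p = 0.188 and 0.216). KIR2DL3, the third KIR probe, was above the limit in no sample, at 7.79 to 13.5. KIR genes share long stretches of sequence, and how far each probe separates them is not given in the sources used here.

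Of the lectin-like KLR receptors, KLRC1 (NKG2A) showed a like pattern, with 24.0 and 26.5 in wild-type lines 1 and 7, 23.4 in knockout line 1 and 9.37 in knockout line 5. KLRK1 (NKG2D), the activating receptor for stress ligands, was at 53.2 and 49.6 in the wild type, and at 45.6 and 43.7 in the knockout. It was above the limit in all 4 samples, with both knockout values below both wild-type values. Its log2 fold change of -0.20 had a 95% interval of -0.77 to 0.38 and did not pass (limma adjusted p = 0.653). KLRB1, KLRD1 and the killer cell antigen CD244 were above the limit in no sample, at 1.00 to 9.37. CD244 stood at the lowest value of the table, 1.00, in wild-type line 7.

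The IgG receptor probes FCGR1A/B and FCGR3A/B also had 1 low line. FCGR1A/B, the high-affinity receptor of monocytes, was at 31.3 and 41.9 in wild-type lines 1 and 7, at 39.0 in knockout line 1 and at 11.5 in knockout line 5. FCGR3A/B (CD16) was at 38.6 and 40.2 in the wild type, at 49.0 in knockout line 1 and at 14.6 in knockout line 5. Knockout line 1 thus lay within or above the wild-type range and knockout line 5 below its background limit, and the SD of the knockout group was 19.4 and 24.3 around means of 25.2 and 31.8. The log2 fold changes, -0.74 and -0.53, did not pass (limma adjusted p = 0.448 and 0.523), and without knockout line 5 they were 0.10 and 0.31. For FCGR2A, another IgG receptor, both knockout values (13.4 and 12.5) lay below both wild-type values (19.8 and 27.4). FCGR2A and FCGRT, the neonatal Fc receptor that recycles IgG and albumin, were above the limit in wild-type line 7 only, at 27.4 and 24.0, and were under the filter.

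Set against the wild-type lines alone, knockout line 5 was lower in 6 further tested members past the threshold: KIR2DL1, KIR3DL1/2, FCGR1A/B, FCGR3A/B, KLRC1 and CD3G, with log2 fold changes from -1.15 to -2.18 and limma adjusted p from 0.000265 to 0.0476. That fit leaves out knockout line 1, assumes that a lone line varies like the wild type, and called 15% of all tested genes, with 9.14% lower. The probe counts behind these values in knockout line 5 were low, with 23 for KIR2DL1 (95% Poisson interval 14.6 to 34.5), 7 for KIR3DL1/2 (2.81 to 14.4), 11 for FCGR1A/B (5.49 to 19.7), 14 for FCGR3A/B (7.65 to 23.5) and 9 for KLRC1 (4.12 to 17.1). Such intervals cover counting error only. Knockout line 5 reached 26.2% of knockout line 1 for KIR3DL1/2, 29.4% for FCGR1A/B, 29.8% for FCGR3A/B, 40.1% for KLRC1 and 42.2% for KIR2DL1.

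A lower level in knockout line 5 was general among low probes of the panel. It was the lowest of the 4 lines in 17 of the 24 tested members (70.8%), against 36.2% of all tested genes. Among tested genes with a mean under 60 it was the lowest in 64.1%, and in 17 of the 19 members of that range (89.5%). The median log2 fold change was -0.44 over the 24 members and -0.04 over all tested genes, and in the range under 60 it was -0.55 over the 19 members and -0.42 over all 195 genes. Against the wild-type mean, the 19 members had a median of -0.12 in knockout line 1 and -0.89 in knockout line 5, and the 195 genes had -0.15 and -0.57. Both knockout values use the same wild-type lines. The filter at 20 used the mean over all samples, so that low members could pass it through 1 genotype. CD8B, KIR3DL1/2, CD28, KLRC1, CD3G, CD4, CD1E and LILRA3 passed with knockout means of 15.7 to 18.9. Their wild-type means were 23.2 to 36.5, and no tested member had a wild-type mean under 20. How far the filter shaped these shares and medians was not tested. The background limit of knockout line 5, 21.7, was above those of wild-type line 7 and knockout line 1. Its mean over the negative controls, 7.93 normalised counts, was the lowest of the 4 lines, against 8.48 to 8.87. With the limit set without NEG_A, that of knockout line 5 was also the lowest, at 12.9 against 14.4 to 14.9. The part of overall low-probe level in the members' values was not tested.

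**Figure D4:**
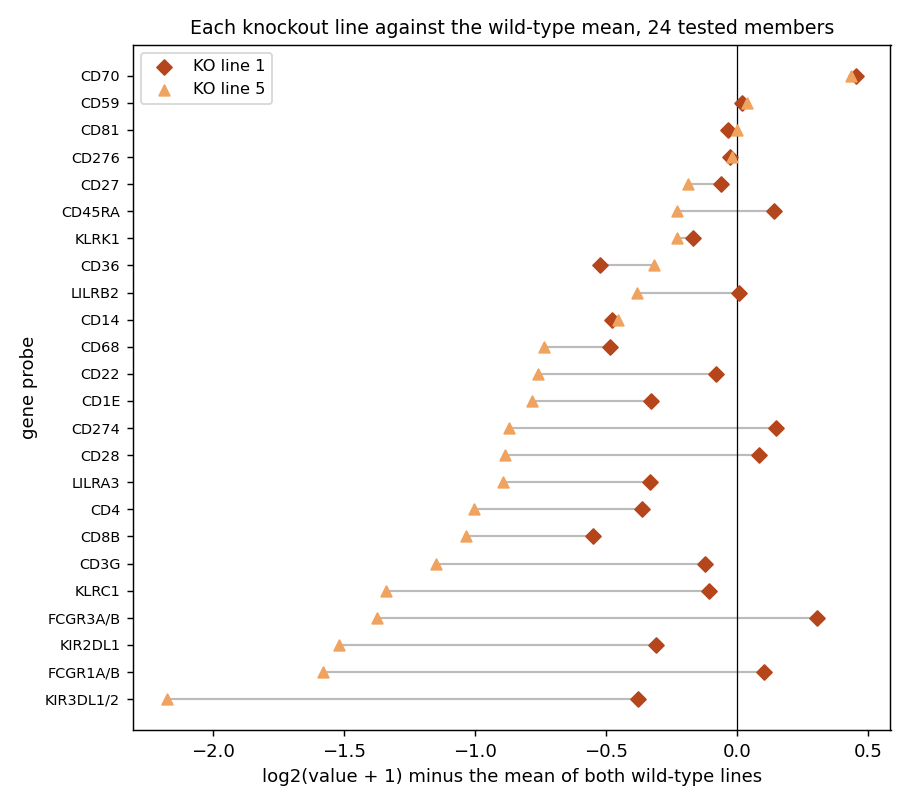
Log2(value + 1) of each knockout line minus the mean of both wild-type lines, for the 24 tested members, ordered by knockout line 5. The lines coincide for CD70, CD59, CD81, CD276 and CD14, and lie more than 1 log2 unit apart for KIR3DL1/2, FCGR1A/B, FCGR3A/B, KLRC1, KIR2DL1, CD3G and CD274.

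T cell antigens were near background. Of 11, none was above the limit in all samples, and 5 were above it in some. CD8B, the beta chain of the CD8 co-receptor, was at 27.1 and 40.2 in wild-type lines 1 and 7, and at 22.3 and 15.6 in knockout lines 1 and 5. CD4 was at 20.9 and 32.5 in the wild type, and at 20.03 and 12.5 in the knockout. Both had knockout values below both wild-type values, without passing (log2 fold change -0.79 and -0.68, limma adjusted p = 0.306 and 0.428). CD3G, a chain of the T cell receptor complex, ranged from 10.4 to 28.2 and the co-stimulator CD28 from 11.5 to 30.8, with log2 fold changes of -0.63 and -0.40. The sign for CD28 turned without wild-type line 7 or knockout line 5. CD69, an early activation antigen, ranged from 14.5 to 26.5. The other receptor chains CD3D, CD3E and CD247 and the antigens CD2, CD6 and CD8A were above the limit in no sample, at 3.34 to 19.7.

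B cell antigens were likewise low. CD22, an inhibitory B cell lectin, was above the limit in 3 samples, with 26.1 and 28.2 in wild-type lines 1 and 7, 25.6 in knockout line 1 and 15.6 in knockout line 5, and a log2 fold change of -0.42 (limma adjusted p = 0.554). The B cell receptor chains CD79A and CD79B, and CD38, an enzyme of plasma cells and other leukocytes, were above it in no sample, at 2.08 to 13.6.

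Among myeloid and dendritic cell antigens, CD68 and CD14 were above the limit in all 4 samples. CD68, a lysosomal glycoprotein abundant in macrophages, was at 42.8 and 45.4 in wild-type lines 1 and 7, and at 31.2 and 26.0 in knockout lines 1 and 5. CD14, a co-receptor for bacterial lipopolysaccharide, was at 34.4 and 37.7 in the wild type, and at 25.6 and 26.0 in the knockout. For both the knockout lines lay below the wild-type lines and close to each other. The log2 fold changes of -0.61 ± 0.31 and -0.47 ± 0.33 (SE) did not pass (limma adjusted p = 0.306 and 0.460). CD1E, a lipid antigen protein of dendritic cells, had a log2 fold change of -0.55 (limma adjusted p = 0.464) at 13.5 to 24.0. The co-stimulator CD80 ranged from 12.5 to 22.3 and SIGLEC5 from 10.4 to 26.5. CD86, CD84, CD163 and the C-type lectin CD209 (DC-SIGN) were above the limit in no sample, at 5.20 to 15.6.

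LILR receptors ranged from 11.5 to 35.9. LILRB2, an inhibitory receptor for MHC class I, was above the limit in 3 samples, at 23.0 and 35.9 in wild-type lines 1 and 7, and at 28.9 and 21.9 in knockout lines 1 and 5. The knockout values lay between the wild-type ones or just under them, with a log2 fold change of -0.19 (limma adjusted p = 0.811). LILRA3, which is secreted, was above the limit in wild-type line 7 only, at 30.8, with a log2 fold change of -0.61 (limma adjusted p = 0.460). LILRA5 and LILRA6 were above it in no sample.

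The panel held 4 probes for CD45, the leukocyte phosphatase encoded by PTPRC, and 1 of them was above the limit. The CD45RA probe, for the spliced forms that naive T cells carry, was at 47.0 and 43.6 in wild-type lines 1 and 7, and at 50.1 and 38.5 in knockout lines 1 and 5, above the limit in every sample. The CD45RB probe was at 10.0 to 13.5, the CD45R0 probe at 4.45 to 10.4 and the PTPRC probe at 6.68 to 9.39, below the limit in every sample. CD45RA did not differ detectably between genotypes, with a log2 fold change of -0.04, an interval of -0.66 to 0.58 and limma adjusted p = 0.944. The sequence of the probes was not used here, so that what the CD45RA probe counted was not tested.

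**Figure D5:**
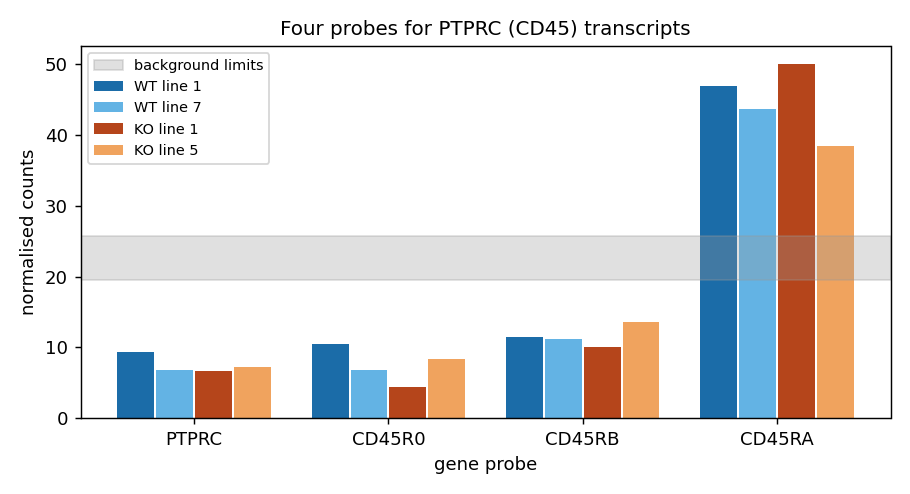
Normalised counts of the PTPRC probe and of the 3 CD45 isoform probes in each line; the grey band spans the background limits, from 19.5 to 25.7. CD45RA lies between 38.5 and 50.1 in every line, above the band, and the others lie below it.

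Genes that signal below these receptors were examined as a list of kinases and adaptors, of which 22 are reported here and 13 were tested. FYN and SYK passed the threshold, both higher in the knockout, and none passed lower, or 2 of 13 where limma called 8.17% of all tested genes, 6.23% higher; the median log2 fold change was 0.13, against -0.04 over all tested genes. FYN, a Src family kinase, was at 164 and 145 in wild-type lines 1 and 7, and at 324 and 392 in knockout lines 1 and 5, and lost its call under limma without the trend (adjusted p = 0.0801). SYK, the kinase that binds phosphorylated receptor chains, was at 34.4 and 40.2 in the wild type, and at 83.5 and 66.6 in the knockout (log2 fold change 0.98 ± 0.26, SE; limma adjusted p = 0.0411). SYK lost its call without wild-type line 1 (limma adjusted p = 0.0893) or knockout line 1 (0.0951), under limma without the trend (0.113) and with edgeR (adjusted p = 0.0519). The adaptors TYROBP and HCST pair with activating receptors of the KIR and KLR families, among others. Both were above the limit in no sample, at 8.33 to 16.3 and 3.13 to 10.4. The T cell kinases ZAP70 and LCK were at 12.5 to 24.5 and 13.5 to 26.5.

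Cell surface molecules listed as ligands of immune cell receptors made a second list, with 12 on the panel and 9 tested. Not all of them are ligands of members, and VCAM1 and SIRPA have their main partners outside the members. VCAM1 rose (log2 fold change 3.03, limma adjusted p = 5.68e-06) and SIRPA fell (-0.74, limma adjusted p = 0.0452). Of the 9 tested, 1 was thus called higher and 1 lower, where limma called 8.17% of all tested genes, 6.23% higher and 1.95% lower. The median log2 fold change over the list was 0.22, against -0.04 over all tested genes. The SIRPA call was lost when wild-type line 7 was left out (limma adjusted p = 0.233), and likewise without knockout line 1 (0.0787) and knockout line 5 (0.0893). It was also lost with 3 other scalings of the samples (0.0534 to 0.0889), without a filter (0.0524), after background subtraction (0.0549) and under limma without the trend (0.118). HLA-E, the ligand of the receptor formed with KLRC1, was at 226 and 223 in wild-type lines 1 and 7, and at 263 and 274 in knockout lines 1 and 5, and did not pass (log2 fold change 0.25, limma adjusted p = 0.294). HLA-C, the ligand of KIR2DL1, was at 158 and 146 in the wild type, and at 176 and 179 in the knockout (log2 fold change 0.22, limma adjusted p = 0.428). For both, the knockout lines lay above the wild-type lines.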

How the data were processed

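Normalised counts of 785 gene probes in 4 samples were used. The deposited values are a signal: per the values, the authors scaled the whole counts of a sample by a common factor, between 0.856 and 1.11, and left the control probes as counts. All gene values above 1.5 were whole multiples within 0.006. In wild-type line 7, 4 values stand at exactly 1.00, above 1 count. The geometric mean of 10 common reference genes was equal in all samples. The submitters' processing notes name R 4.1.1 with no role; normalisation method and background treatment are not given in the sources used here.

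Knockout and wild type were compared with limma 3.58.1 (R 4.3.3, lmFit and eBayes with trend, two-sided) on log2(value + 1), which understates changes of low genes, over the 514 genes whose mean reached 20, with Benjamini-Hochberg adjustment over all of them at 0.05. Alternatives were 3 scalings, 3 filters, limma without the trend, a pseudocount of 10, background subtraction, edgeR 4.0.16 on recovered counts, other limits and leaving out each line. On simulated data limma recovered 99.4% of 180 changed genes among 492, with 10 false calls. Recovery at a fold change as small as that of CD70 was not tested, so that rate is not read as a result about CD70. Members above the limit in all samples, tested members and those above it in part were named; the others were summarised. Of the members and listed genes, 2 are not reported here. Members, lists and tests were chosen with earlier results of these data known. No date of culture or assay was used, so batch and genotype cannot be told apart.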

Additional observations from a re-analysis of the deposited data

How the results depend on the processing

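CD70 was the member called in every setting except limma without the trend, where its log2 fold change of 0.446 had an adjusted p of 0.175. In that setting 0 members passed, and 0.778% of all tested genes did. By unadjusted limma p, 4 of the 24 members were under 0.05 there. They were CD70 (0.0116), and CD68 (0.0123), CD14 (0.0139) and CD1E (0.0472), which were lower in the knockout. KIR2DL1 (0.125) and KIR3DL1/2 (0.130) were not among them. The share over all tested genes was not counted in that setting, so that 4 of 24 cannot be called many or few. Over the other settings the log2 fold change of CD70 ran from 0.437 to 0.529. Other members passed only without wild-type line 1 (CD36) or without knockout line 1 (all of them lower in the knockout). Such fits leave 1 line in a group, so how many passed is not read as a result about the members. The number of members above the limit in all samples was 11, was 8 at mean plus 3 SD and 15 at mean plus 1 SD, and was 17 with the limit set without NEG_A, an alternative chosen after seeing the data. Without single lines it ran from 11 to 17, the latter without knockout line 5.

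Of the 302 values of members that were not called, 277 kept direction and side of the threshold, 7 passed it and 18 changed sign. With the reference genes without TBP, CD276 was at 0.061, CD45RA at 0.038 and CD81 at 0.065. With equal medians CD276 was at 0.0056 and CD81 at 0.0098, and with positive control scaling CD81 was at 0.0041. Without single lines the log2 fold change ran from -0.34 to 0.095 for CD27, from -0.87 to 0.15 for CD274, from -0.89 to 0.083 for CD28, from -0.23 to 0.14 for CD45RA, from -0.0090 to 0.066 for CD59, from -0.050 to 0.014 for CD81, from -1.58 to 0.10 for FCGR1A/B, from -1.38 to 0.31 for FCGR3A/B and from -0.50 to 0.13 for LILRB2. For no reversal was the cause tested. No paired analysis was possible because wild type and knockout have just 1 number in common. Low counts limit most members: intervals of those with a mean under 60 spanned more than 1 log2 unit.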
